A study of Mus musculus with 12 samples.

Results

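The alpha joining segments (Traj genes) are short exons of the T cell receptor alpha locus. All genes whose symbol is Traj followed by a number were taken, which gave 60 of the 48709 genes listed in each of 3 deposited tables. In the annotation 51 of them are labelled as joining genes and 9 as pseudogenes. The 51 are called functional segments here, without a test of function. They were read in CD8 T cells specific for the tumour antigen Spas-1, taken from mice that carried TRAMP-C2 tumours. TRAMP-C2 is a prostate tumour cell line of the mouse that grows when injected.

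The sort, from draining lymph nodes of wild type C57BL/6 mice aged post natal day 91, took live CD45+CD3+CD8+ cells positive for the Spas-1 tetramer and negative for the Spas-2 tetramer. The 4 groups received an isotype control antibody (Isotype), anti-CTLA-4 alone, anti-PD-1 DANA alone, or the pair (Combo), and all mice carried the tumour. CTLA-4 and PD-1 are inhibitory receptors of T cells, and DANA names a change in the constant part of the antibody that keeps it from binding Fc receptors. Cells of 5 mice were pooled per group and each pool was split into 3 libraries. The libraries of a group are therefore technical splits of 1 pool, group and pool cannot be told apart, and p-values reflect no spread other than that of the splits. Each table compares 1 treatment with Isotype. It gives the larger of both group means in RPKM (reads scaled by gene length and library size), a log2 fold change and a false discovery rate, and all 3 comparisons share the Isotype libraries.

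During T cell development a variable segment of the alpha locus is cut and joined to a joining segment, and the joined exon is then spliced to the constant gene Trac. A clone keeps its choice of joining segment, so the joining segments in a receptor transcript differ between clones. The joining segment encodes the end of the antigen-binding loop and carries a motif of phenylalanine or tryptophan followed by glycine, any residue and glycine. Invariant receptors use fixed segments: natural killer T cells of the invariant type join Trav11 to Traj18, and mucosal-associated invariant T cells join Trav1 to Traj33.

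The segments lie on the plus strand of chromosome 14 (GRCm38), chr14:54155005-54218842, in 63838 bases that end 1679 bases before Trac, and the coordinates of all 60 equal those of GENCODE mouse release M21. No other annotated gene overlaps any of them. Their lengths run from 29 to 72 bases with a median of 61. The sequences below are those of GENCODE M21 for the segments that led a group or stood nearest to a call, for both segments of invariant receptors, and for the functional segment without reads in any library. Capitals mark the motif, which encodes the conserved residues where it is in frame, as it is in those shown with capitals except Traj46.
Traj46, chr14:54172336-54172398: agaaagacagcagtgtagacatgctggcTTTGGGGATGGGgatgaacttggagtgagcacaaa
Traj33, chr14:54185358-54185414: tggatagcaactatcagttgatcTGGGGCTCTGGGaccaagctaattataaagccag
Traj31, chr14:54187895-54187951: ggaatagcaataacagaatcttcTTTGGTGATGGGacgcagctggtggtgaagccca
Traj30, chr14:54189866-54189924: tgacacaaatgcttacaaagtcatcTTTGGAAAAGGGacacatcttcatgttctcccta
Traj29, chr14:54190946-54191005: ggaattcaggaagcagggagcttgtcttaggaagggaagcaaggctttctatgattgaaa
Traj27, chr14:54192303-54192361: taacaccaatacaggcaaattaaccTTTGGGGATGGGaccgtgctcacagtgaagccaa
Traj23, chr14:54196081-54196140: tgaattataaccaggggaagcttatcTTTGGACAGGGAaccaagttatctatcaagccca
Traj18, chr14:54200777-54200842: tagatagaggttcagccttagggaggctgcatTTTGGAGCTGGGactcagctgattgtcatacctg
Traj16, chr14:54203134-54203194: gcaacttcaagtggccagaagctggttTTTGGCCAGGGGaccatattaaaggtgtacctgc
Traj12, chr14:54206553-54206610: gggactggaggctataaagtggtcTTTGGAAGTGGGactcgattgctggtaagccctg

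The motif was searched on both strands as TTTGGNNNNGGN, TTCGGNNNNGGN or TGGGGNNNNGGN. On the sense strand it was found in 45 segments, of which 36 have the first form, 7 the second and 2 the third, among them Traj33. No segment held it on the other strand. Over both strands it was in 75.0% of the segments, against 3.39% of the first 60 bases of a transcript from each of 21888 protein-coding genes. In 40 of the 45 segments the motif is followed by 22 bases to the end of the exon. It is in the reading frame of these in 43 of the 45, and out of it in Traj46 and Traj7, where 23 bases follow. All 45 segments with the motif had reads in at least 1 group, as did 9 of the 15 without it. The longest run of identical bases shared by any pair of segments was 16 bases, between Traj53 and Traj45.

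Depths were recovered from the smallest steps of the RPKM means and ran from 14729713 to 42556869 reads per library over 12 libraries. Per group they summed to 81353263 reads in Isotype, 63406380 after anti-CTLA-4, 82948406 after anti-PD-1 DANA and 99145388 in Combo. With these depths and the segment lengths, each of the 138 segment means above 0 gave exactly 1 set of whole reads for its 3 libraries, and with lengths 1 base longer none did. A mean is deposited only for the larger side of a comparison. The reads of a treated group are therefore known only for segments where it exceeded Isotype, and the other side was estimated from the known mean and the fold change. In 30 cases where both sides were known, the estimate was off by a median of 0.08 on the log2 scale and by at most 0.42. In all 30 the treated mean was above Isotype, and the Isotype level was the one estimated. Estimates of a treated group where Isotype had the larger mean, which include all estimates in Combo, could not be checked this way. A segment with an estimate under 0.5 read in a group is counted here as without reads. Libraries are numbered by rising depth, since they cannot be tied to the replicate numbers. PCR reads without molecular identifiers are not independent molecules, and fewer cells with a segment cannot be told apart from less RNA per cell.

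By recovered and estimated reads together, more segments had reads after either single antibody than in the Isotype or Combo pools. Of the 60 segments, 35 had reads in Isotype, 46 after anti-CTLA-4, 47 after anti-PD-1 DANA and 31 in Combo, the deepest group. The summed level of all segments was 391 RPKM in Isotype, 445 RPKM after anti-CTLA-4, 491 RPKM after anti-PD-1 DANA and 204 RPKM in Combo. Segments at 10 RPKM or more numbered 15, 19, 19 and 5 in that order. These counts and sums are 1 value per pool and carry no test. Of the segments with reads, 4 in Isotype, 16 after anti-CTLA-4, 15 after anti-PD-1 DANA and 18 in Combo were counted from estimates, the smallest of which were 1.32, 5.60, 9.25 and 1.16 reads. Recovered reads alone gave 31, 30, 32 and 13 segments, so that the higher counts after the single antibodies than in Isotype rest on the estimates.

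**Figure D1:**
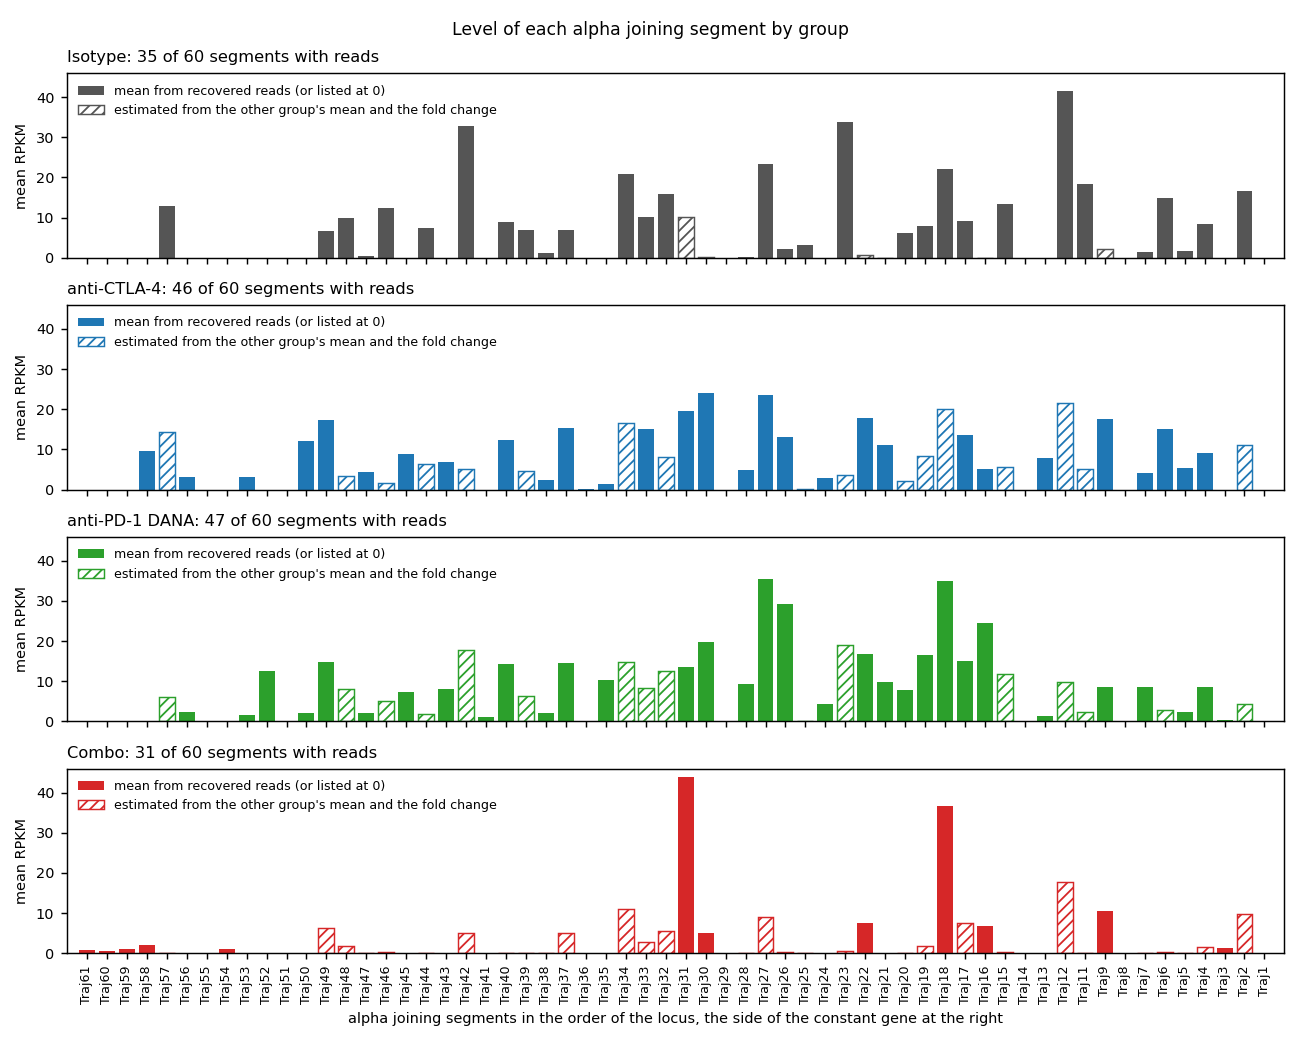
Mean level (RPKM, vertical axis) of each of the 60 alpha joining segments in locus order (horizontal axis), with a panel per group; filled bars are means from recovered reads and hatched bars are estimates. Combo shows 5 segments at 10 RPKM or more, led by Traj31 and Traj18, against 15 to 19 in the other groups.

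Which segments had reads differed by group. A common core of 23 segments had reads in all 4 groups, and 11 more had reads in every group except Combo. Another 8 segments (Traj56, Traj53, Traj50, Traj45, Traj43, Traj35, Traj24 and Traj13) had reads after both single antibodies and none in Isotype or Combo. In all, 19 segments had reads after both single antibodies and not in Combo, while 4 had reads in Combo alone (Traj61, Traj60, Traj59 and Traj54). Those 4 are among the 8 segments farthest from Trac, 3 of them are pseudogenes, and each rested on 3 to 8 reads in 1 library. Traj25 was the reverse case, with reads in Isotype alone. Reads after treatment and none in Isotype also occurred in other genes. Of the 17833 tested genes, at least 1556 had this after anti-CTLA-4, 1839 after anti-PD-1 DANA and 1195 in Combo. The share of all genes with each of the patterns above was not computed, so the patterns are not read as particular to the segments.

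Position in the locus was read by cutting it into 30 upstream and 30 downstream segments. Upstream segments with reads numbered 14 in Isotype, 22 after anti-CTLA-4, 22 after anti-PD-1 DANA and 13 in Combo. Downstream segments, nearer to Trac, numbered 21, 24, 25 and 18. Reads in pseudogene segments were few: none in Isotype or after anti-PD-1 DANA, 1 read of Traj36 after anti-CTLA-4, and in Combo 7 reads of Traj61, 5 of Traj54 and 3 of Traj60. The 6 segments with no reads in any library were the pseudogenes Traj55, Traj51, Traj14, Traj8 and Traj1, and the functional segment Traj29, whose sequence above lacks the motif.

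The signal was spread over many segments after the single antibodies and held by few in Combo. The most abundant segment was Traj12 in Isotype with 10.6% of the summed level, Traj30 after anti-CTLA-4 with 5.38%, Traj27 after anti-PD-1 DANA with 7.20% and Traj31 in Combo with 21.5%. The 5 most abundant segments together held 39.2% in Isotype, 24.4% after anti-CTLA-4, 29.3% after anti-PD-1 DANA and 58.7% in Combo. Expressed as the effective number of equally abundant segments (the inverse Simpson index), this was 19.5 in Isotype, 31.9 after anti-CTLA-4, 28.8 after anti-PD-1 DANA and 9.64 in Combo. The order of the groups was the same when the most abundant segment of each was left out, with 19.9, 31.4, 29.2 and 10.7.

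**Figure D2:**
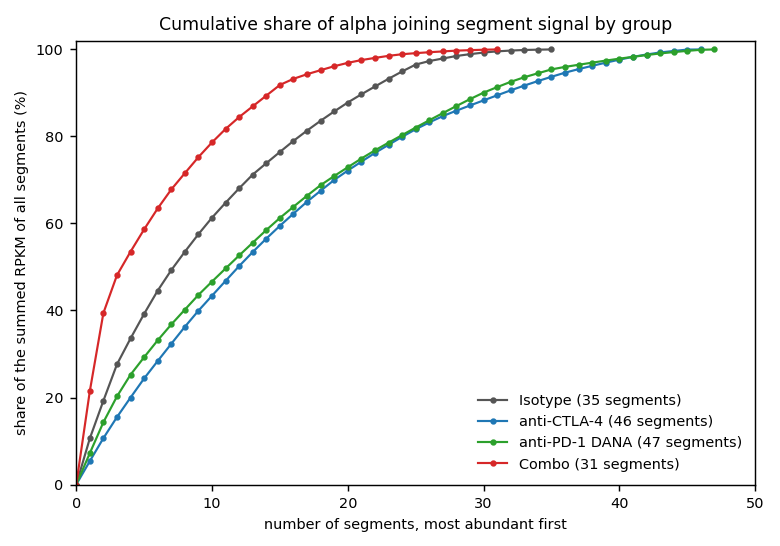
Cumulative share of the summed RPKM (percent, vertical axis) against the number of segments ranked from the most abundant (horizontal axis), with a line per group. The Combo line climbs fastest, reaching 58.7% with 5 segments, and the lines of both single antibodies climb slowest, at 24.4% and 29.3%.

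The leading segments of a group differed in how evenly its 3 libraries held them. Traj12 had 74, 43 and 78 reads in the Isotype libraries, a level of 41.5 ± 11.5 RPKM (SD, n = 3 libraries), and all 3 libraries were high. Traj23, the next in Isotype, had 45, 0 and 139 reads and 33.9 ± 35.3 RPKM, with nothing in the second library. Traj42, next after these, had 154 reads, all in the second library. Traj34 likewise had 89 reads in that library alone, Traj57 had 60 there, and Traj48 had 60 in the third library alone. Traj11 had 76, 0 and 3 reads and Traj15 57, 1 and 0, so that the first library held nearly all of both.

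After anti-CTLA-4 the leading segment Traj30 had 22, 24 and 44 reads, or 23.9 ± 2.28 RPKM, with all 3 libraries close. Traj27 had 33, 5 and 49 reads there and 23.5 ± 17.2 RPKM. After anti-PD-1 DANA, Traj27 had 33, 49 and 98 reads and 35.4 ± 14.9 RPKM, and Traj30 had 22, 34 and 42 reads and 19.7 ± 3.78 RPKM. Traj26 reached 29.1 ± 18.5 RPKM after anti-PD-1 DANA with 17, 78 and 52 reads, and Traj16 reached 24.5 ± 4.44 RPKM with 38, 32 and 55 reads. In Isotype, Traj26 had 1, 0 and 12 reads.

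In Combo the signal of Traj31 came from 0, 65 and 232 reads, or 43.8 ± 48.3 RPKM, with none in the shallowest library. Its levels elsewhere were 19.5 ± 17.0 RPKM after anti-CTLA-4 (30, 23 and 3 reads) and 13.6 ± 8.46 RPKM after anti-PD-1 DANA (6, 24 and 38 reads). Traj9, also among the 5 leading segments of Combo, had 0, 1 and 76 reads. Traj30 had 1, 27 and 0 reads in Combo, and Traj16 had 1, 39 and 0.

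**Figure D3:**
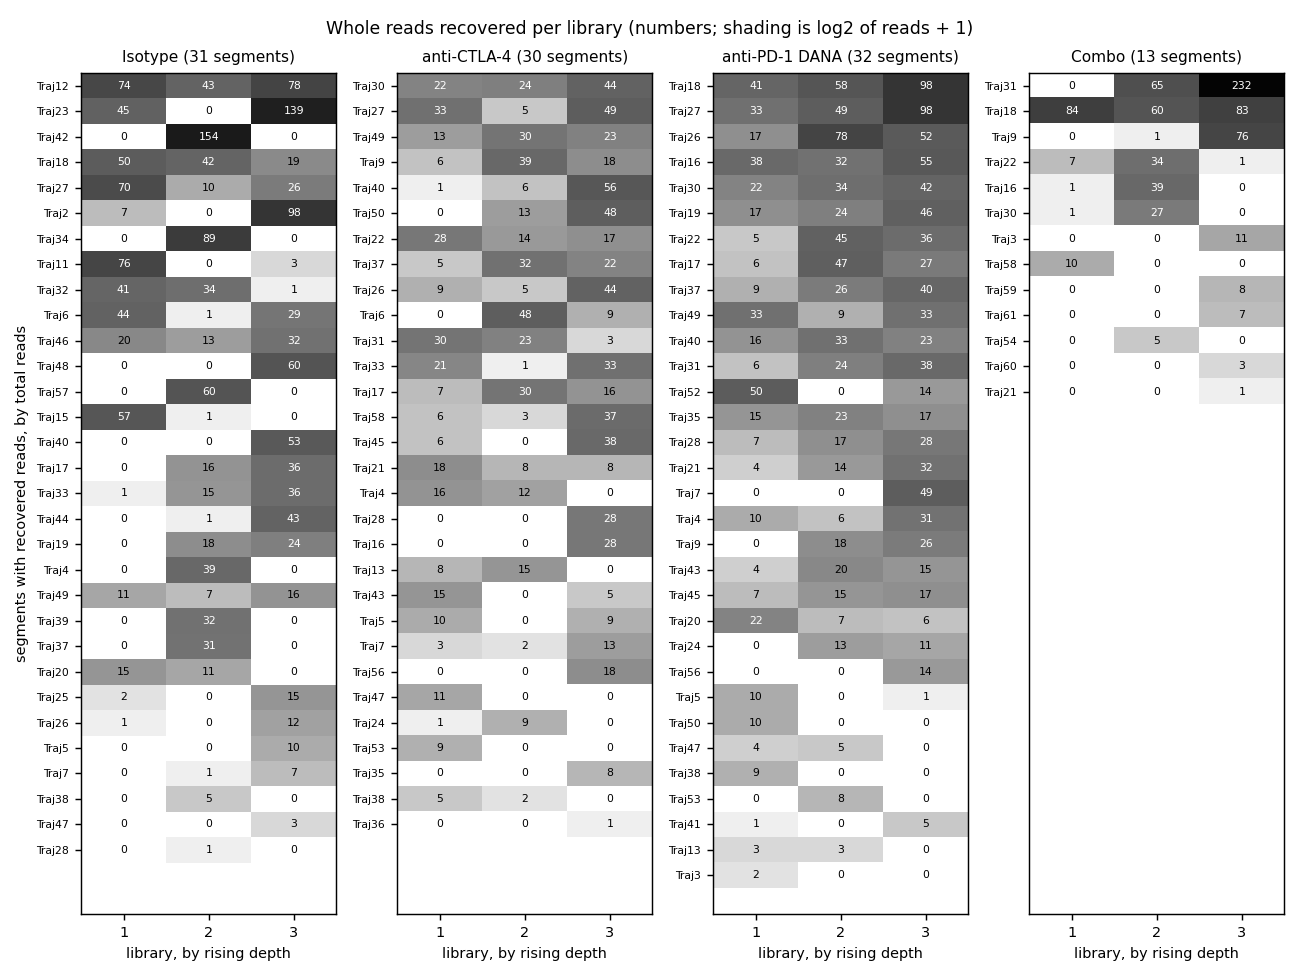
Whole reads recovered per library (columns, by rising depth) for each alpha joining segment with known reads (rows, by total reads), with a panel per group; shading is log2 of reads + 1. In Isotype many segments have their reads in a single column, such as Traj42 with 0, 154 and 0.

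Among segments with known reads, the 3 libraries of Isotype, of anti-CTLA-4 and of anti-PD-1 DANA each had another leading segment, while in Combo Traj31 led in the second and the third. Segments known only by an estimate, such as Traj18 and Traj12 after anti-CTLA-4 at an estimated 19.96 and 21.5 RPKM, have no reads per library and are outside this ranking. Over the 31 segments with known reads in Isotype, 15, 22 and 21 had reads in the libraries by rising depth, and the leading segment was Traj11 with 76 reads, Traj42 with 154 and Traj23 with 139. After anti-CTLA-4, 23, 20 and 24 of 30 segments had reads, led by Traj27 with 33, Traj6 with 48 and Traj40 with 56. After anti-PD-1 DANA, 27, 24 and 26 of 32 segments had reads, led by Traj52 with 50, Traj26 with 78, and Traj27 and Traj18 with 98 each. In Combo 5, 7 and 9 of 13 segments had reads, led by Traj18 with 84 and by Traj31 with 65 and 232.

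A segment is called dependent on 1 library here if 80% or more of its mean came from it. Among segments with at least 10 known reads this held for 15 of 27 in Isotype, 8 of 26 after anti-CTLA-4, 5 of 26 after anti-PD-1 DANA and 5 of 8 in Combo. Reads in all 3 libraries were found for 8, 14, 19 and 2 of these segments. Other tested genes of the same read range were so dependent in 68.5%, 72.5%, 69.6% and 65.0% of cases, against 55.6%, 30.8%, 19.2% and 62.5% of the segments. In the treated groups these segments are the ones that exceeded Isotype.

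Traj18, the joining segment of invariant natural killer T cells, had reads in every library for which reads are known. It had 50, 42 and 19 reads in Isotype (22.1 ± 11.9 RPKM), 41, 58 and 98 after anti-PD-1 DANA (35.0 ± 10.6 RPKM) and 84, 60 and 83 in Combo (36.6 ± 13.2 RPKM), and an estimated 19.96 RPKM after anti-CTLA-4. The groups overlap. In the authors' deposited tables its log2 fold change was -1.09 ± 1.74 (implied standard error) after anti-CTLA-4, -0.10 ± 1.73 after anti-PD-1 DANA and 0.64 ± 1.73 in Combo, with a lowest false discovery rate of 0.9998. Its partner variable segments were lower in level. Trav11d, an alpha variable segment of the Trav11 family, had a mean of 13.1 RPKM in Isotype and log2 fold changes of -7.18 ± 2.22, -1.56 ± 2.09 and -7.88 ± 2.32 in the same order, of which that in Combo was called (false discovery rate 0.0318), while Trav11 had 0.486 RPKM in Isotype. Zbtb16, the transcription factor that defines these cells, was listed at 0 in the tables of anti-CTLA-4 and Combo and had a larger mean of 0.0024 RPKM in that of anti-PD-1 DANA. Klrb1c, another marker in the list for these cells, had larger means of 0.071, 1.39 and 0.0093 RPKM in the tables of anti-CTLA-4, of anti-PD-1 DANA and of Combo. Its log2 fold changes were 1.83 ± 2.44, 6.24 ± 2.41 and -0.22 ± 2.56, none called.

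Traj33, the joining segment of mucosal-associated invariant T cells, had 1, 15 and 36 reads in Isotype (10.2 ± 9.25 RPKM) and 21, 1 and 33 after anti-CTLA-4 (15.2 ± 12.6 RPKM). Its estimated level was 8.25 RPKM after anti-PD-1 DANA and 2.87 RPKM in Combo. The log2 fold changes were -0.39 ± 1.81, -1.13 ± 1.81 and -1.94 ± 1.83 in the deposited tables, none called. Trav1, its partner, had larger means of 5.53 RPKM in the anti-CTLA-4 table, 3.60 RPKM in the anti-PD-1 DANA table and 0.0365 RPKM in the Combo table, and was not called. Of the genes that present antigen to these receptors, Cd1d1 (25.7 RPKM in Isotype) and Mr1 (6.66 RPKM) were called lower in Combo, with log2 fold changes of -7.26 ± 1.45 and -7.47 ± 1.75 in the authors' deposited table.

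No alpha joining segment passed a false discovery rate of 0.05 in any of the 3 tables. Of the 60 segments, 50 were tested, the other 10 being the 9 pseudogenes and Traj29. In the authors' deposited table for anti-CTLA-4, 0 of 50 were called against 4.23% of all 17833 tested genes, for anti-PD-1 DANA 0 of 50 against 3.75%, and for Combo 0 of 50 against 7.53%. The lowest false discovery rates were 0.248 (Traj30), 0.270 (Traj16) and 0.0876 (Traj23). Errors were large, with a median implied standard error of 1.98, 1.97 and 2.82 on the log2 scale, so that a fold change of several doublings could go uncalled. Unadjusted p-values under 0.05 therefore serve only to describe direction.

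By that measure, 7 segments were higher and 3 lower after anti-CTLA-4, where 14.8% of all tested genes were higher and 8.14% lower. After anti-PD-1 DANA 9 were higher and 1 lower, against 15.3% and 7.77% of all tested genes. In Combo 1 was higher and 11 lower, against 12.4% and 10.8%. The higher counts after the single antibodies are near the background. The lower count in Combo is above it, but 7 of its 11 segments owed 80% or more of their Isotype mean to 1 library, and 4 are left without them. The share of all tested genes left by the same filter was not computed.

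**Figure D4:**
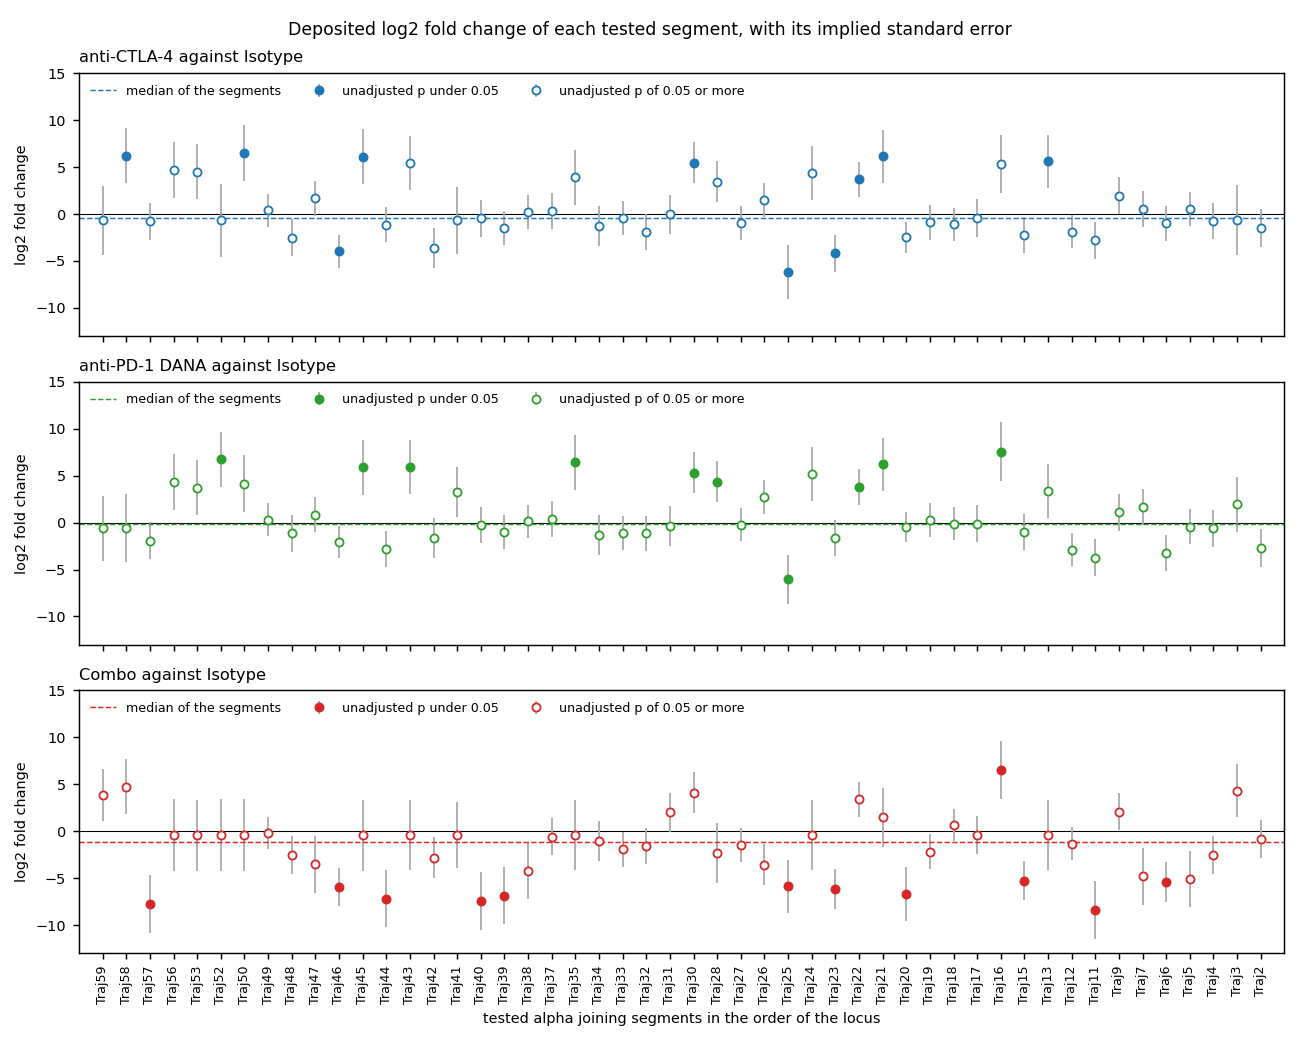
Deposited log2 fold change against Isotype (vertical axis) with its implied standard error (bars) for the 50 tested segments in locus order (horizontal axis), with a panel per treatment; filled points have an unadjusted p under 0.05. In Combo 11 filled points lie below 0 and 1 above, after anti-CTLA-4 3 below and 7 above, and after anti-PD-1 DANA 1 below and 9 above.

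The median log2 fold change of the 50 segments in the authors' deposited tables was -0.44 after anti-CTLA-4, -0.11 after anti-PD-1 DANA and -1.18 in Combo. For all tested genes it was -0.62, -0.45 and -0.42. In Combo 40 of the 50 segments (80%) were below 0, against 57.0% of all tested genes. That count includes segments with no reads in either group, whose deposited value is no fold. When scaled by library size alone, which shifts every gene by 0.94, 0.82 and 0.11, the medians were 0.50, 0.70 and -1.07, so the sign for the single antibodies depends on the scaling and the sign for Combo does not. With segments that had no reads in a group set at a bound of 3 reads over that group, and those at or under it in both left out, the medians on that scale were 0.76 over 46 segments, 0.70 over 47 and -1.51 over 37. In Combo 28 of these 37 were below 0 and 9 above. The share of all tested genes under that bound was not computed.

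The other segments of the receptor gave the setting. Of 111 tested alpha variable segments, 3 were called higher and 1 lower after anti-CTLA-4, 2 and 2 after anti-PD-1 DANA, and 2 and 9 in Combo, with medians of 1.30, 3.33 and -0.42. Of 23 tested beta variable segments none was called after either single antibody and 5 were called lower in Combo, with medians of -0.68, -0.55 and -1.21. None of the 13 tested beta joining segments was called, with medians of -0.38, -0.11 and -0.68. Whether the joining segments differ from these families was not tested.

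Of the 7 segments with an unadjusted p under 0.05 and a higher level after anti-CTLA-4, 5 had no reads in Isotype. Traj50 had 0, 13 and 48 reads after anti-CTLA-4 (12.2 ± 12.9 RPKM) and none in Isotype, at least 20.8-fold higher against a bound of 3 reads over the Isotype libraries, with a deposited log2 fold change of 6.54 ± 2.99 and a false discovery rate of 0.415. Traj58 had 6, 3 and 37 reads and was at least 16.4-fold higher (6.20 ± 2.93), and Traj45 had 6, 0 and 38 reads and was at least 15.3-fold higher (6.12 ± 2.91). Traj21, estimated at under 0.5 read in Isotype, had 18, 8 and 8 reads and was at least 17.3-fold higher, the most even of these. Traj13 had 8, 15 and 0 reads and was at least 12.01-fold higher. Traj30 and Traj22, the other two, had an estimated 0.28 and 0.69 RPKM in Isotype and 23.9 and 17.8 RPKM after anti-CTLA-4. On the lower side stood Traj25 (-6.14 ± 2.87, from 2, 0 and 15 Isotype reads to an estimate under 0.5 read), Traj23 (-4.17 ± 1.97, from 33.9 to an estimated 3.62 RPKM) and Traj46 (-3.97 ± 1.74, from 12.4 to an estimated 1.52 RPKM). Next in size, above that p, were Traj42 (-3.59 ± 2.15), whose Isotype reads lay in 1 library, and Traj11 (-2.80 ± 1.94).

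After anti-PD-1 DANA the segment farthest from Isotype was Traj16. Its 38, 32 and 55 reads stood against an estimate under 0.5 read in Isotype, at least 40.5-fold higher, with a deposited log2 fold change of 7.57 ± 3.10 and a false discovery rate of 0.270. Traj52 had 50, 0 and 14 reads and none in the other 3 groups, at least 22.6-fold higher than Isotype (6.72 ± 2.95), and its first library held 82% of the mean. Traj35 had 15, 23 and 17 reads and none in Isotype (6.40 ± 2.88), the groups not overlapping. Traj21 (6.19 ± 2.86), Traj45 (5.88 ± 2.91) and Traj43 (5.88 ± 2.88) also had reads in all 3 libraries, at least 15.3-fold, 12.5-fold and 12.5-fold higher. Traj30 (5.31 ± 2.19), Traj28 (4.37 ± 2.15) and Traj22 (3.79 ± 1.87) completed the 9, all with reads in each library. The lowest values were those of Traj25 (-6.06 ± 2.62), Traj11 (-3.76 ± 1.96), Traj6 (-3.20 ± 1.90), Traj12 (-2.89 ± 1.74) and Traj44 (-2.81 ± 1.91), of which only Traj25 had an unadjusted p under 0.05.

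In Combo the segments nearest to a call were both lower than Isotype. Traj23 went from 45, 0 and 139 Isotype reads to an estimated 0.50 RPKM (2.85 reads). Its deposited log2 fold change was -6.18 ± 2.10, with a false discovery rate of 0.0876. Traj46 had 20, 13 and 32 Isotype reads (12.4 ± 3.60 RPKM), the most even of the 11. Its Combo level was an estimated 0.21 RPKM (1.27 reads), with -5.96 ± 2.05 and a false discovery rate of 0.0966. Both Combo estimates lie under the bound of 3 reads used above. With the adjustment made over the 17833 tested genes in place of all listed ones, Traj23 and Traj46 were called, as were 12.5% of all tested genes. Over the 5307 genes with a larger mean of 5 RPKM or more, Traj11 and Traj6 were called as well. That made 4 of 28 segments, against 22.1% of these genes. All 4 passed the floor through their Isotype mean. Traj6 had 44, 1 and 29 Isotype reads and a deposited value of -5.42 ± 2.09.

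The other 8 lower segments were Traj11, Traj57, Traj15, Traj40, Traj44, Traj20, Traj39 and Traj25. Traj11 had the lowest fold change of all (-8.38 ± 3.09) and was at least 35.9-fold lower in Combo, with 76 of its 79 Isotype reads in the first library. Traj57 (-7.77 ± 3.10), Traj40 (-7.44 ± 3.10), Traj44 (-7.18 ± 3.06) and Traj39 (-6.87 ± 3.01) were at least 27.8-fold, 17.8-fold, 14.9-fold and 14.4-fold lower, and each had its Isotype reads in 1 library but for 1 read of Traj44. Traj20 had 15, 11 and 0 Isotype reads and was at least 11.8-fold lower. Without the segments whose larger mean rested on 1 library, the lower count in Combo was 4 (Traj23, Traj46, Traj6 and Traj20) in place of 11, and the higher count was 0 in place of 1.

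On the higher side in Combo, Traj16 (6.50 ± 3.10, at least 11.4-fold) owed its mean to 39 reads in the second library. Traj58 (4.73 ± 2.95) had 10 reads in the first library, Traj3 (4.29 ± 2.83) 11 in the third, and Traj59 (3.89 ± 2.76) 8 in the third. Traj30 (4.09 ± 2.20) had 1, 27 and 0 reads. All 5 of the highest values in Combo thus rested on 1 library.

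Some segments can be followed through the 3 comparisons, which share their Isotype libraries. Traj30 was 5.46 ± 2.19, 5.31 ± 2.19 and 4.09 ± 2.20 on the log2 scale in the tables of anti-CTLA-4, of anti-PD-1 DANA and of Combo, and Traj22 was 3.71 ± 1.88, 3.79 ± 1.87 and 3.39 ± 1.88. Traj25 was -6.14, -6.06 and -5.89, from a low Isotype level of 3.16 RPKM. Traj40 was -0.47 ± 1.94 and -0.23 ± 1.94 after the single antibodies and -7.44 ± 3.10 in Combo, with 1, 6 and 56 reads after anti-CTLA-4, 16, 33 and 23 after anti-PD-1 DANA and an estimate under 0.5 read in Combo. Traj26 was 1.48 ± 1.84, 2.69 ± 1.83 and -3.57 ± 2.21, from 13.1 and 29.1 RPKM after the single antibodies to an estimated 0.20 RPKM (1.16 reads) in Combo.

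The treatments were set against each other by the difference of their fold changes, with an upper bound for its standard error because they share Isotype. No segment had an adjusted p under 0.05 in any of the 3 contrasts, against 0.0561% of all tested genes for Combo against anti-CTLA-4, 0.0393% for Combo against anti-PD-1 DANA and 0% for anti-CTLA-4 against anti-PD-1 DANA. The lowest adjusted p-values (Benjamini-Hochberg over the tested genes, normal test of the difference) were 0.662, 0.700 and 0.99998. Unadjusted, no segment had a p under 0.05 in the contrast of Combo with anti-CTLA-4, where 3.45% of all tested genes were higher and 4.36% lower, or in that of the single antibodies, with 1.98% and 2.39%. In Combo 2 segments were lower and 0 higher than after anti-PD-1 DANA, against 4.08% and 2.41% of all tested genes. These were Traj26, with a difference of -6.26 (95% interval -11.9 to -0.64), and Traj40, with -7.21 (-14.4 to -0.05). The median difference over the segments was -1.89 for Combo against anti-CTLA-4 and -3.73 for Combo against anti-PD-1 DANA, where all tested genes had 0.25 and 0.17. Below 0 were 35 of 50 segments in the former and 40 of 50 in the latter, against 43.9% and 45.9% of all tested genes. With the same bound of 3 reads and library size scaling, 42 of 47 segments and 41 of 49 were below 0, with medians of -2.40 and -2.03. That scaling adds 0.11 in Combo and 0.94 and 0.82 after the single antibodies, so it lowers every gene in both contrasts. The share of all tested genes under that bound and scaling was not computed. For anti-CTLA-4 against anti-PD-1 DANA the median was -0.09, against -0.08 for all genes. For Traj18 the interval of the difference between Combo and anti-PD-1 DANA ran from -4.06 to 5.55, and for Traj31 from -3.37 to 8.17, so differences of many doublings either way were not resolved.

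The constant genes of the receptor chains were not called in any table. Trac, to which a joined alpha exon is spliced, had log2 fold changes of -0.77 ± 0.46, -0.51 ± 0.46 and -0.80 ± 0.46 in the authors' deposited tables, with larger means of 360 RPKM, 393 RPKM and 322 RPKM. Trbc1 had -0.88 ± 0.44, -0.38 ± 0.44 and -0.29 ± 0.44, and Trbc2 -0.75 ± 0.37, -0.55 ± 0.37 and -0.11 ± 0.37. Trdc, the delta constant gene, had at most 2.70 RPKM in any table and a lowest false discovery rate of 0.141. Scaled by library size, Trac was 0.18, 0.31 and -0.70. The medians of the segments had the same signs on that scale, as did those of all tested genes (0.33, 0.36 and -0.31). Of 4 CD3 chains and of 12 genes of V(D)J recombination, 10 of them tested, none was called in any table. Rag1 and Rag2, which cut the segments during development, were listed at 0 in all groups.

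The sort was checked against marker lists. All 8 CD8 T cell markers were tested and uncalled, with Cd8b1 at 422 RPKM in the anti-CTLA-4 table. Over 8 B cell genes the larger means summed to 998, 508 and 472 RPKM in the 3 tables, where each larger mean is that of Isotype for some genes and of the treated group for others. Of the 8, Ms4a1 was called higher after anti-CTLA-4 (6.03 ± 1.65, false discovery rate 0.0255), and the other 7 were uncalled there, among them Cd79b (-0.67), Ighm (-0.12), Cd74 (0.32) and Igkc (0.55). The median of the 8 was 0.78, -0.55 and 0.10 in the tables of anti-CTLA-4, of anti-PD-1 DANA and of Combo. Of 4 CD4 T cell genes, Cd4 was called higher after anti-CTLA-4 (8.23 ± 2.36, false discovery rate 0.0390) at 2.48 RPKM, while Cd40lg (7.82), Foxp3 (-0.11) and Ctla4 (-2.19) were uncalled, and the larger means of the 4 summed to 6.63 RPKM. Of 7 myeloid genes, 5 were tested: Fcgr3 was called lower in all 3 tables (-11.2, -11.1 and -7.63), C1qa lower after anti-CTLA-4 (-9.69), Lyz2 lower in Combo (-4.26) and Csf1r higher after anti-PD-1 DANA (8.44). The fifth, C1qb, was uncalled at 9.92, 8.89 and 2.08, opposite in sign to C1qa in each table. Adgre1 and Cd14 were listed at 0. Of 5 gamma-delta T cell genes 3 were tested and none was called, and Il17a and Sox13 were listed at 0. Tcrg-C2 had log2 fold changes of 6.29 ± 2.17, 6.29 ± 2.17 and 5.08 ± 2.17 in the 3 tables. Its larger means were 9.31, 8.49 and 2.27 RPKM. Tcrg-C1, at 3.69 RPKM in Isotype, had -7.43 ± 2.40, -1.71 ± 2.21 and -7.93 ± 2.51, and Trdc had 1.67, -1.13 and -8.95. The part of these cells in the levels of the joining segments was not tested.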

How the data were processed

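RNA of 12 libraries (3 per group, 0.25 ng of RNA, 21 pre-amplification cycles) was processed by CLC Genomics Workbench (per the labels' protocols), with the GRCm38.p5 build named in the submitters' processing notes. Not given in the sources used here are its version, its statistical model, and the counting of reads that span a rearranged junction. Each of the 3 tables the authors deposited holds the larger group mean in RPKM, the log2 fold change, a signed linear fold change (a score, negative where Isotype is higher), and p-values before and after adjustment by false discovery rate and Bonferroni. The unit RPKM was read from the values. The deposited false discovery rate equals a Benjamini-Hochberg adjustment over all 48709 listed genes, of which 17833 were tested.

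The tables hold no value per library, so no count model was fitted. Computed here, with Python 3.11.15, numpy 2.4.6, pandas 2.3.3 and scipy 1.17.1: standard errors implied from the p-value (Wald test assumed), library sizes and whole reads from the RPKM steps, with exon lengths of GENCODE M21 (48349 genes, 99.3%, matched; for Traj57 and Traj59 the shorter transcript), and levels of the lower side from the fold change after a scaling shift over 418, 229 and 177 genes whose means are both known. Of genes known to have reads in the treated group and none in Isotype, 93.0%, 93.1% and 94.3% were estimated under 0.5 read in Isotype. Estimates under 0.5 read in a treated group had no such check. The recovery and tests were tested on simulated data. Day labels disagree: treatments were on days 3, 6 and 9 in the sample labels and 3, 6 and 8 in the series text, and the harvest day, 28, has treatment as its start in the labels and tumour injection as its start in the text.

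The segments named are those with the 5 highest means, the 5 highest and 5 lowest fold changes and the values nearest the threshold in each table, with Traj18 and Traj33 whatever their values. Segments in presence counts, in per-library examples and with an unadjusted p under 0.05 were named after their values were seen. Members and lists were chosen with earlier results of these data known. Alternatives tried were other adjustments, library size scaling, a floor of 5 RPKM on the larger mean, and leaving out pseudogenes or segments resting on 1 library.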

Additional observations from a re-analysis of the deposited data

How the results depend on the processing

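The count of 0 called segments against Isotype was unchanged for both single antibodies under adjustment over tested genes only, library size scaling, and a floor of 5 RPKM on the larger mean. Bonferroni adjustment and leaving out pseudogenes left it at 0 in all 3 comparisons, but neither could change it. Bonferroni is the stricter adjustment, and none of the 9 pseudogenes was tested. For Combo it was 2 of 50 with adjustment over tested genes only, against 12.5% of all tested genes. With a larger mean of 5 RPKM or more it was 4 of 28, against 22.1% of the genes at that floor. With library size scaling it was 0. Library size scaling reversed the median log2 fold change to 0.50 after anti-CTLA-4 and 0.70 after anti-PD-1 DANA and left it at -1.07 in Combo. The medians of all tested genes became 0.33, 0.36 and -0.31 in that order. Alternatives for the counts at an unadjusted p under 0.05 were chosen after seeing the data. With library size scaling, 10 segments in place of 7 were higher after anti-CTLA-4 and 0 in place of 3 lower. Of all tested genes 19.0% were then higher and 3.95% lower. After anti-PD-1 DANA 10 in place of 9 were higher, against 19.5% of all tested genes. With a larger mean of 5 RPKM or more, the lower counts were 2, 0 and 10 in place of 3, 1 and 11 in the 3 comparisons. Without segments resting on 1 library they were 2, 0 and 4, and the higher counts were 7, 8 and 0 in place of 7, 9 and 1. Other counts were unchanged. The shares of all tested genes under that floor and without such genes were not computed. The treatment contrasts stayed at 0 with a larger mean of 5 RPKM or more. Counting only recovered reads left 31 segments in Isotype, 30 after anti-CTLA-4, 32 after anti-PD-1 DANA and 13 in Combo, in place of 35, 46, 47 and 31. No paired analysis was possible because the tables hold no value per library and the recovered depths carry no replicate number. For the same reason no fit without a library was run. Depth and the splitting of 1 pool limit what can be seen: segments rest on at most 297 reads over 3 libraries.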
